A study of Homo sapiens with 6 samples.

Results

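The E2F transcription factors and the RB pocket proteins were followed in RNA from cells labelled A549, a lung adenocarcinoma line. The members were named by symbol: the activators E2F1, E2F2 and E2F3, the repressors E2F4 and E2F5, the atypical repressors E2F7 and E2F8, and the pocket proteins RB1, RBL1 and RBL2. All 10 were listed in every library, each on 1 row, among 17787 symbols listed in any file, and all 10 passed the filter on low values that left 12555 genes for testing. There were 3 libraries labelled siFOXD3, named for a small interfering RNA against the forkhead gene FOXD3, and 3 labelled siNC with the genotype wild type, a name the labels do not spell out and which served as the control. The sources used here give no siRNA sequence, dose or time of harvest, and no label says that the replicates were separate cultures, so p-values measure the spread between these libraries, which may be technical.

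E2F proteins bind DNA as dimers with a DP partner and switch on genes for entry into S phase. RB1 and its relatives RBL1 (p107) and RBL2 (p130) bind E2F proteins and hold those genes silent until cyclin-dependent kinases phosphorylate the pocket proteins, while the atypical E2F7 and E2F8 repress without a DP partner or a pocket protein. In lung cancer this circuit is commonly disabled, by loss of RB1 in small cell tumours and by loss of the kinase inhibitor CDKN2A in many others.

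The labels were checked first. FOXD3 was listed at 0, 0.0749 and 0 FPKM (fragments relative to transcript length and library depth) in siFOXD3 replicates 1 to 3, against 0.152, 0.291 and 0.134 FPKM in siNC replicates 1 to 3, lower in every siFOXD3 library and below the filter in all 6, so it was not tested. These FOXD3 values rest on few fragments and are a weak check. WDR5 and SET, both in the series title, were called higher in siFOXD3 (log2 fold changes 0.73 and 0.55, limma). Of all genes tested 27.2% were called higher, so these 2 calls do not check the labels. The summed level of 6 epithelial markers, keratins among them, was 8754 to 8832 FPKM in siFOXD3 and 6743 to 7707 FPKM in siNC. The protocol label speaks of retina, yet the 8 retinal markers summed to 0.752 to 1.29 FPKM in siFOXD3 and 0.739 to 1.22 FPKM in siNC, with the defining markers GNAT1, SAG and RCVRN listed in no file. The leukocyte, fibroblast and endothelial lists were carried mainly by 1 gene each, CD68 (65.2 to 66.8 FPKM in siFOXD3, 69.5 to 78.9 FPKM in siNC), COL1A1 and CDH5, while PTPRC, CD3E and KDR were near 0 and DCN and LUM were listed in no file.

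Some genes went against the cell line named in the labels. A549 is known to carry a deletion that removes CDKN2A, CDKN2B and the neighbouring MTAP, and to express the mesenchymal filament gene VIM abundantly. Here CDKN2A, whose symbol covers both p16INK4a and ARF, was at 129, 126 and 128 FPKM in siFOXD3 and at 154, 154 and 155 FPKM in siNC. CDKN2B was at 7.57 to 9.84 FPKM in siFOXD3 and 15.1 to 17.3 FPKM in siNC, and MTAP at 12.1 to 12.3 FPKM in siFOXD3 and 9.20 to 11.7 FPKM in siNC. VIM was at 0.959 to 1.46 FPKM in siFOXD3 and 3.49 to 4.25 FPKM in siNC. This held in all 6 libraries, and these genes were looked up after values had been seen. The cells are therefore called the cells labelled A549, and their identity was not tested.

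The E2F1 promoter is a textbook E2F-responsive one, and the starts of other members were looked at beside it. Whether the letters near a start relate to the changes of the members was not tested. RefSeq promoter windows (GRCh38.p14, another build than the hg19 of the files) were matched for 8 of the 10 members; E2F5 and E2F8 were not matched. The windows, each of 250 bases before and 50 bases after an annotated start, were searched on both strands for the E2F words TTTCCCGC, TTTCGCGC, TTTGCCGC and TTTGGCGC. A shorter form without the first T, which every longer match also contains, was counted separately. The 100 bases before the start of the 4 members that hold the longer word are shown beside those of E2F4 and RBL2, which hold neither form. The sequences read 5′ to 3′ on the strand of the gene, and capitals mark the matches.
E2F1, chr20:33686386-33686485, minus strand: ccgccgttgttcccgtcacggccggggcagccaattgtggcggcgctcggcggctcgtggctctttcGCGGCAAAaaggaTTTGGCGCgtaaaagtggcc
E2F2, chr1:23531234-23531333, minus strand: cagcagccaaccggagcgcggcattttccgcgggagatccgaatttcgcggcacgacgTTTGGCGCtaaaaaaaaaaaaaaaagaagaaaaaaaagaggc
E2F3, chr6:20401779-20401878, plus strand: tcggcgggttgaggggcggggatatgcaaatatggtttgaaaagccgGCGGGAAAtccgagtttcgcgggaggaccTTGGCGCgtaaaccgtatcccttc
RBL1, chr20:37095998-37096097, minus strand: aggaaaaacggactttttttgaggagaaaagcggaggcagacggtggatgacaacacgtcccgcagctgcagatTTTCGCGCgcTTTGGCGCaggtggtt
E2F4, chr16:67192055-67192154, plus strand: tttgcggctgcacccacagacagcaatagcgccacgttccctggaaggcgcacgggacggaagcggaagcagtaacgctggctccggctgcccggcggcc
RBL2, chr16:53434371-53434470, plus strand: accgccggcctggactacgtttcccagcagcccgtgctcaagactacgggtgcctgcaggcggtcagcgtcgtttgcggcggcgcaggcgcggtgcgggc

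E2F1 and RBL1 each held 2 longer words within 33 bases of the start, E2F2 held 1 at 42 bases before it, and E2F3 held 1 at 53 bases before it with a shorter one at 24. Of all 34796 distinct promoter windows of this length in the table, 3.3% held a longer word and 0.144% held 2 or more, and 13.0% held the shorter form. E2F7 held 2 shorter words, 176 and 133 bases before the start. The second annotated start of E2F3, 1708 bases downstream of the most 5′ end in GENCODE, held none, and the expression files do not separate the products of the 2 starts. The shown RBL2 window begins from a start 494 bases inside the most 5′ GENCODE end, its second window held none, and the RB1 window lies 172724 bases inside the gene and is not counted. None of the member windows searched held the forkhead word TGTTTAC, which 3.42% of all windows hold. E2F5, whose chromosome was left out, and E2F8 were not searched. A match is a description of the letters, and binding was not measured.

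**Figure D1:**
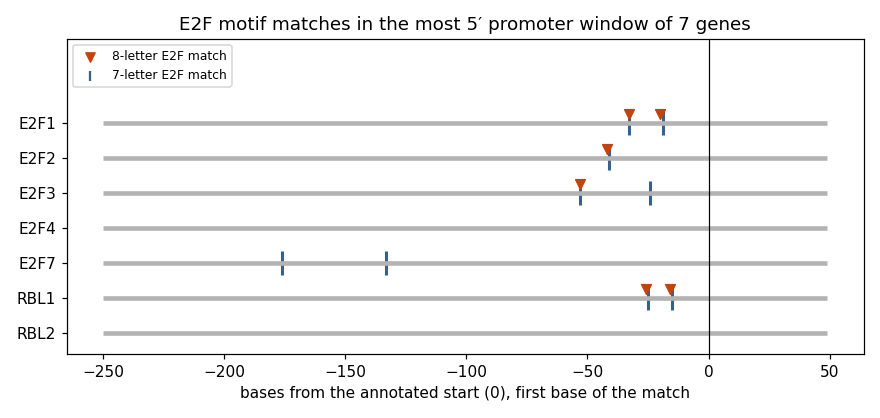
Position of E2F word matches in the promoter windows of 7 members, in bases from the annotated start at 0 (horizontal axis). Triangles are the longer words and ticks the shorter form; E2F1 and RBL1 show 2 triangles each, E2F2 and E2F3 show 1 each, and E2F4 and RBL2 show none.

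Of the 10 members, 7 were called higher and 2 lower in siFOXD3 (limma, Benjamini-Hochberg adjusted p under 0.05). The activator E2Fs all rose, the repressor E2F5 and the pocket protein RBL2 fell, and E2F7 was not called. Among all genes tested, 65.9% were called, 27.2% higher and 38.7% lower, so a call in itself is common in this comparison, while 7 of 10 called higher stands beside a share of 27.2%. Because the members were chosen with earlier results of these data known, their count is a description. The values of siFOXD3 and siNC did not overlap for 9 members, against 70.7% of all genes. The median log2 fold change of the members was 0.36, and that of all genes was -0.08. Both other scalings moved the median of all genes to 0.03, and that of the members to 0.46 with median-of-ratios scaling and 0.53 with quantile normalization, with no member changing direction. RNA of whole cultures was measured, so a larger share of cells in one phase of the cycle and more RNA per cell cannot be told apart.

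**Figure D2:**
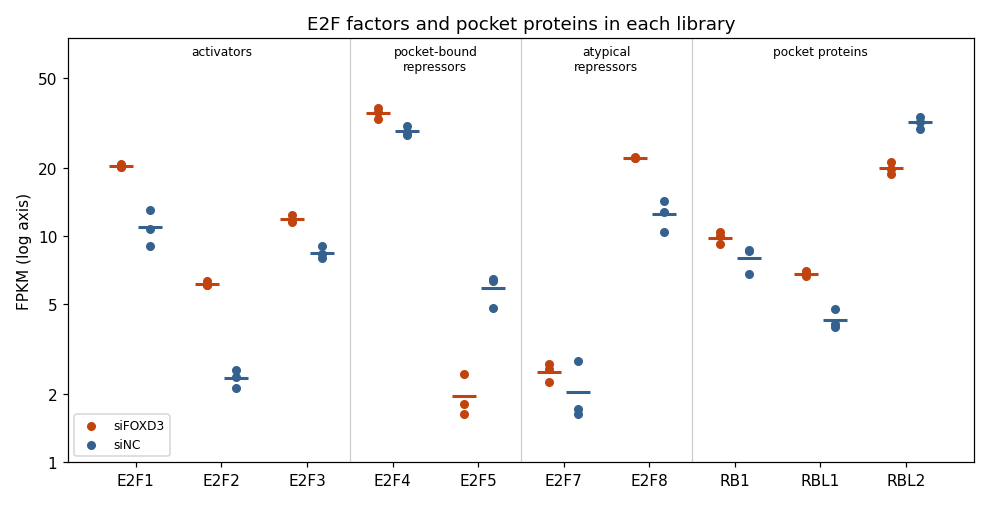
FPKM (log axis) of each member in the siFOXD3 (left, orange) and siNC (right, blue) libraries, with 1 point per library and a bar at the mean. The groups are apart for every member except E2F7, and E2F5 and RBL2 are the members with siFOXD3 below siNC.

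The activators bind RB1 and drive genes of S phase. E2F1 was at 20.1, 20.1 and 20.9 FPKM in siFOXD3 and at 13.0, 10.8 and 9.02 FPKM in siNC. The siNC libraries spread widely and still lay below all siFOXD3 libraries, and the rise was 0.85 ± 0.11 on the log2(FPKM + 1) scale (SE, limma, adjusted p = 5.35e-05). E2F2, the scarcest activator, was at 6.06, 6.05 and 6.34 FPKM in siFOXD3 and at 2.38, 2.13 and 2.57 FPKM in siNC. It had the largest rise of the 10 members, 1.09 ± 0.09 (limma, adjusted p = 3.14e-06), a ratio of means of 2.61. The log2 scale with 1 FPKM added understates the change of a gene this low, and with 0.1 FPKM added the rise of E2F2 was 1.35. With 5 FPKM added it was 0.60, below E2F1 (0.68) and E2F8 (0.64). E2F3 was at 12.4, 11.7 and 11.5 FPKM in siFOXD3 and at 7.99, 9.04 and 8.31 FPKM in siNC. Its rise was the smallest of the activators, 0.45 ± 0.07 (limma, adjusted p = 0.000336), with no overlap between the groups.

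The pocket-bound repressors E2F4 and E2F5, which pair mainly with RBL1 and RBL2, moved in opposite directions. E2F4, an abundant E2F that lacks a nuclear localisation signal of its own, was at 33.0, 36.6 and 35.1 FPKM in siFOXD3 and at 30.5, 28.7 and 28.0 FPKM in siNC. The gap between the groups was narrow, and the rise was 0.26 ± 0.06 (SE, limma, adjusted p = 0.00344), a ratio of 1.20. E2F5 was at 2.45, 1.81 and 1.63 FPKM in siFOXD3 and at 4.82, 6.33 and 6.44 FPKM in siNC. It fell by 1.21 ± 0.13 (limma, adjusted p = 2.21e-05), to 0.334 times the siNC mean. On the FPKM as deposited this was a larger change than the rise of E2F2, while with quantile normalization E2F5 was at -0.98 and E2F2 at 1.31, and with median-of-ratios scaling E2F5 was at -1.12 and E2F2 at 1.18. With 0.1 FPKM added in place of 1 FPKM its log2 fold change was -1.54. For each FPKM of E2F4 there were 0.0567 ± 0.0152 FPKM of E2F5 in siFOXD3 and 0.203 ± 0.0390 in siNC (SD, n = 3 each).

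Of the atypical repressors, which act in S and G2 phase and are themselves E2F targets, E2F8 rose and E2F7 was not called. E2F8 was at 22.3, 22.1 and 22.1 FPKM in siFOXD3 and at 14.3, 12.7 and 10.5 FPKM in siNC. Its rise of 0.79 ± 0.10 (SE, limma, adjusted p = 4.25e-05) lay close to that of E2F1, and in both genes siNC replicate 1 was the highest of the siNC libraries. E2F7 was at 2.58, 2.71 and 2.27 FPKM in siFOXD3 and at 2.79, 1.73 and 1.64 FPKM in siNC. The groups overlapped through siNC replicate 1, and the difference of 0.22 ± 0.14 was not called (limma, adjusted p = 0.198). Without siNC replicate 1 the difference in E2F7 was 0.39 (adjusted p = 0.0134), and with quantile normalization it was 0.51 (adjusted p = 0.016). A difference in change between E2F7 and E2F8 was not tested.

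Among the pocket proteins RBL2 fell, RBL1 rose, and RB1 was called higher by a small margin. RBL2, which pairs with E2F4 in the DREAM complex of resting cells, was at 19.8, 18.8 and 21.2 FPKM in siFOXD3 and at 29.8, 32.0 and 33.6 FPKM in siNC. It fell by 0.65 ± 0.07 (SE, limma, adjusted p = 1.48e-05), and the groups were well apart. RBL1, the pocket protein that cycling cells make and an E2F target, was at 6.97, 6.69 and 6.82 FPKM in siFOXD3 and at 4.09, 4.74 and 3.96 FPKM in siNC, a rise of 0.57 ± 0.09 (limma, adjusted p = 0.000198). RB1, the retinoblastoma tumour suppressor, was at 9.95, 10.4 and 9.21 FPKM in siFOXD3 and at 6.81, 8.61 and 8.66 FPKM in siNC, a rise of 0.27 ± 0.10 (limma, adjusted p = 0.0292). The RB1 groups were separated by little, and its call was lost with no filter (adjusted p = 0.0514) and without siNC replicate 1 (0.17, adjusted p = 0.0707), siFOXD3 replicate 1 (0.26, adjusted p = 0.0755) or siFOXD3 replicate 2 (0.23, adjusted p = 0.0992). The summed level of the 3 pocket genes was 36.6 ± 0.714 FPKM in siFOXD3 and 44.1 ± 3.0 FPKM in siNC (SD, n = 3 each). Within that sum RBL2 held 54.4% ± 2.31 in siFOXD3 and 72.2% ± 1.39 in siNC, while RBL1 held 18.7% ± 0.325 in siFOXD3 and 9.70% ± 0.993 in siNC. The ratio of RBL1 to RBL2 was 0.352, 0.356 and 0.322 in siFOXD3 and 0.137, 0.148 and 0.118 in siNC, a mean 2.55 times as high in siFOXD3.

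**Figure D3:**
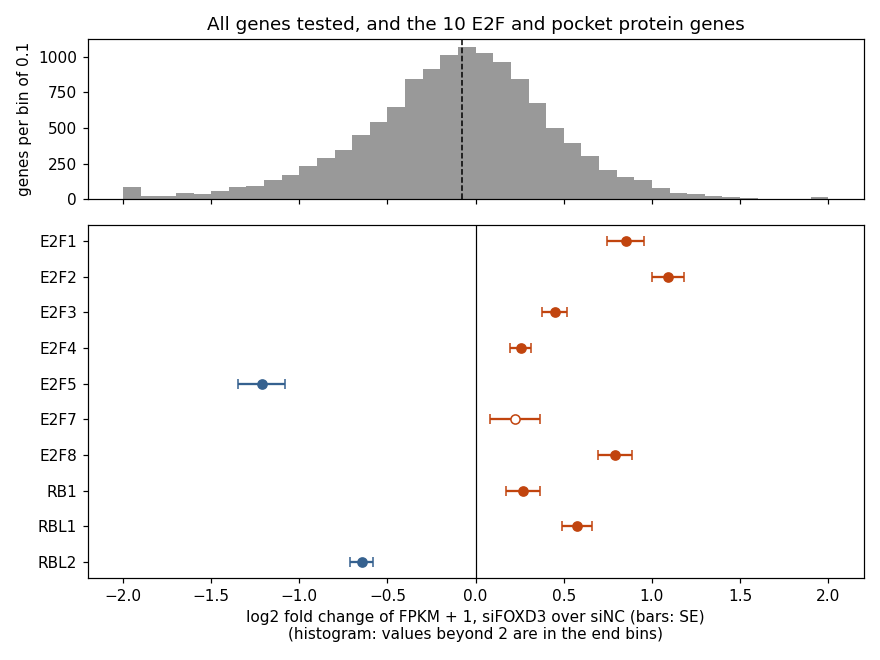
Upper panel, log2 fold changes of FPKM + 1 (siFOXD3 over siNC) of all genes tested in bins of 0.1, with a dashed line at their median of -0.08. Lower panel, the same quantity for the 10 members with SE bars (open point, not called): E2F2 lies furthest right at 1.09 and E2F5 furthest left at -1.21.

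The order of the levels, which FPKM allows since it is scaled by length, differed between the groups. In siFOXD3 the highest member was E2F4 (34.9 FPKM), followed by E2F8 (22.2 FPKM), E2F1 (20.3 FPKM), RBL2 (19.9 FPKM), E2F3 (11.9 FPKM), RB1 (9.85 FPKM), RBL1 (6.83 FPKM), E2F2 (6.15 FPKM), E2F7 (2.52 FPKM) and E2F5 (1.96 FPKM). In that order the libraries of E2F1 and RBL2 overlapped, as did those of E2F7 and E2F5. In siNC the order was RBL2 (31.8 FPKM), E2F4 (29.1 FPKM), E2F8 (12.5 FPKM), E2F1 (10.9 FPKM), E2F3 (8.45 FPKM), RB1 (8.03 FPKM), E2F5 (5.87 FPKM), RBL1 (4.27 FPKM), E2F2 (2.36 FPKM) and E2F7 (2.05 FPKM). There RBL2 overlapped with E2F4, each of E2F8, E2F1 and E2F3 overlapped with the next in order, and E2F2 overlapped with E2F7.

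As classes, the activators summed higher in siFOXD3 while the sums of the pocket-bound repressors lay close together. The activators summed to 38.6, 37.9 and 38.7 FPKM in siFOXD3 and to 23.4, 22.0 and 19.9 FPKM in siNC, a ratio of means of 1.76. E2F4 and E2F5 summed to 35.4, 38.4 and 36.8 FPKM in siFOXD3 and to 35.3, 35.1 and 34.4 FPKM in siNC, a ratio of 1.06, with E2F4 carrying most of the sum. The atypical pair summed to 24.9, 24.8 and 24.4 FPKM in siFOXD3 and to 17.1, 14.5 and 12.1 FPKM in siNC, a ratio of 1.70, most of it E2F8. There were 1.09, 0.986 and 1.05 FPKM of activators for each FPKM of pocket-bound repressors in siFOXD3, against 0.663, 0.626 and 0.578 in siNC. The siFOXD3 libraries were thus near parity and the siNC libraries below it, with a wide gap between the groups.

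A score of the mean log2(FPKM + 1) of the activators minus that of the repressors E2F4, E2F5, E2F7 and E2F8 was 0.34, 0.34 and 0.45 in siFOXD3 and -0.43, -0.40 and -0.38 in siNC, a difference of 0.78. It is given without a p-value, because the members were chosen with results of these data known. The difference was 1.28 against E2F4 and E2F5 alone and 0.29 against E2F7 and E2F8 alone. By class, the activators made up 38.4% ± 0.827 of the summed E2F level in siFOXD3 and 30.5% ± 0.484 in siNC (SD, n = 3 each). The pocket-bound repressors made up 36.9% ± 1.10 in siFOXD3 and 49.2% ± 2.63 in siNC, and the atypical ones 24.7% ± 0.424 in siFOXD3 and 20.3% ± 2.18 in siNC.

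**Figure D4:**
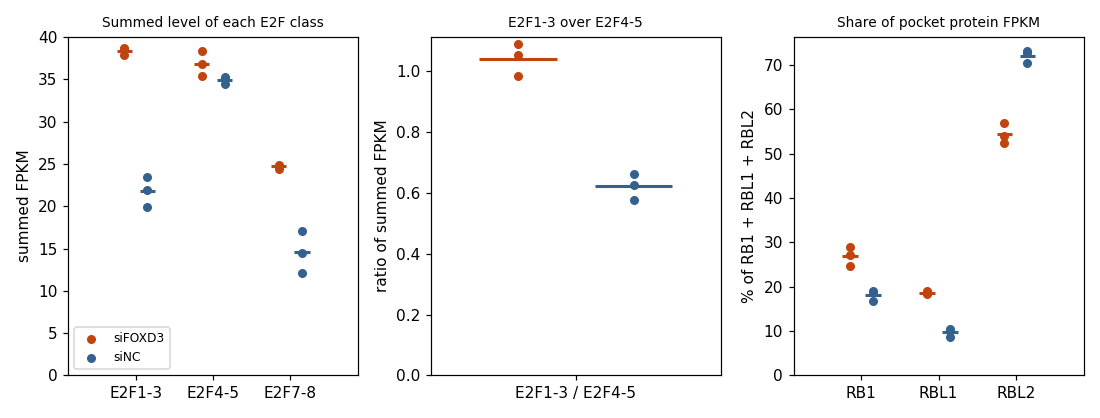
Left, summed FPKM of each E2F class; middle, activators over pocket-bound repressors; right, share of each gene in the summed pocket protein FPKM, in siFOXD3 (orange, left of each pair) and siNC (blue), with 1 point per library and a bar at the mean. The middle panel shows 0.986 to 1.09 in siFOXD3 and 0.578 to 0.663 in siNC, and the right panel shows the lower RBL2 share in siFOXD3.

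The DP partners also moved in opposite directions. TFDP1, the common dimer partner, rose to 118 ± 0.939 FPKM in siFOXD3, against 82.6 ± 7.88 FPKM in siNC (log2 fold change 0.52, limma, adjusted p = 5.39e-05), and TFDP2 fell to 5.84 ± 0.267 FPKM in siFOXD3, against 9.23 ± 0.308 FPKM in siNC (-0.58, adjusted p = 6.18e-05). The ratio of TFDP1 to TFDP2 was 20.3 ± 0.901 in siFOXD3 and 8.97 ± 1.08 in siNC (SD, n = 3 each). E2F6, a repressor that works with Polycomb proteins, was at 11.0 ± 0.522 FPKM in siFOXD3 and 9.11 ± 1.02 FPKM in siNC (0.25, adjusted p = 0.0227), and TFDP3 was listed in no file. The E2F6 call was lost without siNC replicate 1 (adjusted p = 0.0519), siNC replicate 2 (0.0767), siFOXD3 replicate 1 (0.0621) or siFOXD3 replicate 3 (0.0797).

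Upstream, most of the cyclins and kinases that act on pocket proteins were called higher, and most of their inhibitors lower. The list held 10 cyclins, kinases and an activating phosphatase, of which 9 were tested. Of these 7 rose and none fell, 2 missed the threshold, and the median log2 fold change was 0.28. The count called higher was 8 with median-of-ratios scaling and 5 with quantile normalization. Among all genes tested 27.2% were called higher and 38.7% lower. CCNE2, a cyclin E, was at 22.1 ± 0.350 FPKM in siFOXD3 and 7.56 ± 0.432 FPKM in siNC (1.43), while its relative CCNE1 was not called (-0.02, limma, adjusted p = 0.834). CDC25A, which activates CDK2, was at 13.5 ± 0.854 FPKM in siFOXD3 and 5.21 ± 0.492 FPKM in siNC (1.22), and CCNA2, the cyclin of S phase, rose by 0.86. CCND3, a D-type cyclin, rose by 0.45, and CCND2 was listed in no file. Of 7 CDK inhibitors 5 fell and none rose, while 2 missed the threshold, and their median was -0.37. CDKN1A (p21) was at 13.5 ± 0.678 FPKM in siFOXD3 and 35.1 ± 3.45 FPKM in siNC (-1.31), CDKN2B (p15) fell by 0.87, CDKN2A fell by 0.27, and CDKN1C (p57) was at 0.789 ± 0.405 FPKM in siFOXD3 and 3.07 ± 0.348 FPKM in siNC (-1.21). CDKN2C (p18) was at 6.10 ± 1.12 FPKM in siFOXD3 and 8.11 ± 0.861 FPKM in siNC (-0.37, adjusted p = 0.0211), a call that was lost with median-of-ratios scaling (adjusted p = 0.0735), with quantile normalization (0.144) and without siNC replicate 1 (0.0613), siNC replicate 3 (0.0571) or siFOXD3 replicate 2 (0.0795). CDKN2A and CDKN2B neighbour each other and an antisense gene, and no use of strand is stated, so their levels are uncertain to that extent.

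Genes that work with the pocket proteins or with MuvB were mixed. In the list of MuvB core subunits, B-Myb, FOXM1 and DYRK1A, 3 of 8 rose and 1 fell, 4 missed the threshold, and the median was 0.17. The shares of all genes tested were 27.2% called higher and 38.7% lower. MYBL2 (B-Myb), which takes the place of the pocket protein on MuvB in cycling cells, was at 171 ± 3.23 FPKM in siFOXD3 and 67.7 ± 10.9 FPKM in siNC (1.34), and FOXM1, which joins it on mitotic genes, at 47.2 ± 1.04 FPKM in siFOXD3 and 23.9 ± 1.31 FPKM in siNC (0.95). Of the core, LIN9 rose by 0.50 and LIN37 fell by 0.58. Of 8 corepressors that pocket proteins bind, HDAC1 rose (0.33, limma, adjusted p = 9.41e-05) and 7 were not called, among them RBBP7 at 134 ± 3.76 FPKM in siFOXD3 and 130.4 ± 4.87 FPKM in siNC. These counts moved with the scaling of the values: with median-of-ratios scaling 6 of the MuvB list and 5 corepressors were called higher, and with quantile normalization 5 and 3. Of 4 genes that act on the turnover of E2F and RB proteins, CCNF (cyclin F) rose by 0.84 and MDM2 by 0.41, and SKP2 and FZR1 were not called.

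Genes that E2F and DREAM complexes are known to control were nearly all higher. Of 24 E2F targets of G1/S, 23 rose and 1 fell. Their median log2 fold change was 0.71, beside -0.08 for all genes, of which 27.2% were called higher. The G1/S and G2/M lists were chosen with earlier results of these data known, so their counts are a description. CDC6, which loads the replicative helicase, was at 29.7 ± 0.670 FPKM in siFOXD3 and 12.8 ± 0.341 FPKM in siNC (1.16), and MCM4, a helicase subunit, rose by 1.08. SLBP, which binds histone messages, rose by 0.99, and RRM2, of ribonucleotide reductase, was at 102 ± 1.37 FPKM in siFOXD3 and 51.8 ± 6.67 FPKM in siNC (0.97). The gene that fell was CDT1, the licensing factor that works with CDC6, at 12.0, 13.6 and 13.3 FPKM in siFOXD3 and 20.5, 19.4 and 20.0 FPKM in siNC (-0.59 ± 0.07, SE, limma, adjusted p = 2.7e-05); it was named after its value was seen. All 14 G2/M genes that DREAM binds in resting cells rose, with a median of 0.98, among them KIF20A (1.48), CDC20 (1.46), CENPE (1.45) and CCNB1 (1.29). The G1/S list summed to 1245 to 1276 FPKM in siFOXD3 and 739 to 816 FPKM in siNC, and the G2/M list to 1079 to 1109 FPKM in siFOXD3 and 541 to 561 FPKM in siNC. These sums moved with the E2F members, and their part in the members' values was not tested.

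The apoptotic genes that E2F1 is known to induce were mixed. Of 10 genes 2 rose and 4 fell, 4 missed the threshold, and the median was -0.20, or 0.06 with quantile normalization. These counts lie near the shares of all genes tested, 27.2% called higher and 38.7% lower. BBC3 (PUMA) was at 4.86 ± 0.556 FPKM in siFOXD3 and 17.8 ± 0.301 FPKM in siNC (-1.69), and PMAIP1 (NOXA) at 10.4 ± 0.305 FPKM in siFOXD3 and 33.3 ± 0.400 FPKM in siNC (-1.58). BCL2L11 (BIM) was higher, at 10.4 ± 0.591 FPKM in siFOXD3 and 7.70 ± 0.298 FPKM in siNC (0.39). BBC3, PMAIP1, CDKN1A and MDM2 are also known p53 targets, and of these MDM2 rose while the other 3 fell.

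**Figure D5:**
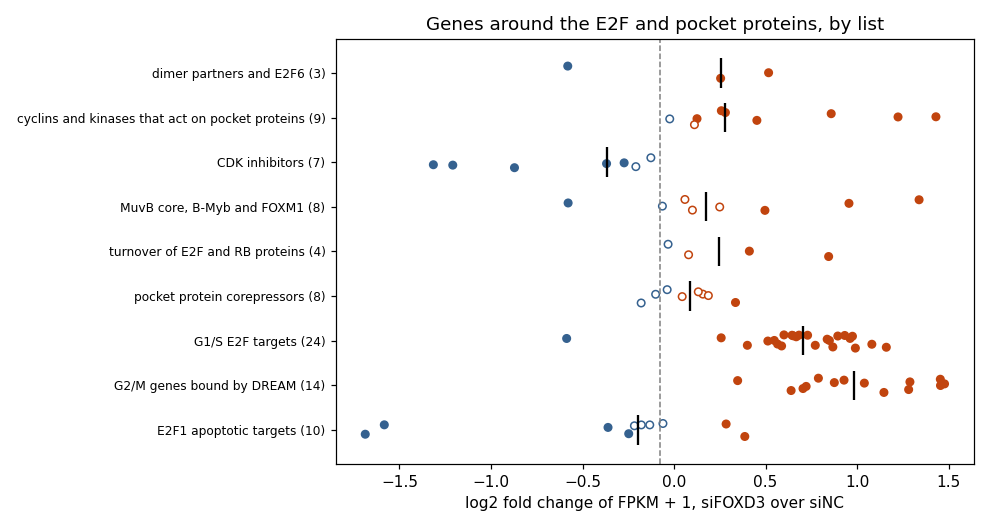
Log2 fold changes of FPKM + 1 (siFOXD3 over siNC) of the tested genes of each list, with the number tested in brackets (filled, called; open, not called; orange, above 0; blue, below 0; black line, list median; dashed line, median of all genes). The G1/S list shows 1 gene left of 0, CDT1, and the CDK inhibitors lie left of 0.

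The genes whose profile over the 6 libraries lay nearest to that of E2F2, the member with the largest rise with 1 FPKM added, were HSPA14, a ribosome-associated chaperone (distance 0.116 in log2 units after centring on the siNC mean), TMEM64, a membrane protein (0.134), and AURKA, a mitotic kinase (0.138). HSPA14 was at 16.9 ± 0.988 FPKM in siFOXD3 and 7.70 ± 0.615 FPKM in siNC, and AURKA at 68.9 ± 0.265 FPKM in siFOXD3 and 33.1 ± 2.15 FPKM in siNC. Nearest to E2F5, the member with the largest fall, were ZEB1-AS1, an antisense RNA (0.163), RRNAD1 (0.204) and NICN1 (0.220). No use of strand is stated, so the level of ZEB1-AS1 is uncertain to that extent. NICN1 was at 3.26 ± 0.356 FPKM in siFOXD3 and 8.84 ± 0.645 FPKM in siNC. With 2 groups of 3 libraries such likeness mostly restates the size of the change, and it is given as a description.

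An exact two-sided permutation test of 3 libraries against 3 cannot give a p below 0.1, so the calls rest on limma's estimate of the spread shared over all genes. The files hold no read counts, and from the spacing of low values each library was put at 7540000 to 8980000 fragments. At that depth 1 FPKM of a transcript of 2000 bases is 15.1 to 18.0 fragments, so E2F2, E2F5 and E2F7 rest on the fewest fragments per length.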

How the data were processed

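RNA of the cells labelled A549 was profiled in 6 libraries, grouped by their titles. Each file deposited by the authors gives FPKM by gene symbol, per the file headers; TopHat, Cufflinks and hg19 were used, per the submitters' processing notes, and the sources used here give no versions, annotation or strand setting. Rows of 1 symbol were summed and absent symbols set to 0. FPKM are no counts, so log2(FPKM + 1) was tested with limma 3.58.1 in R 4.3.3 (eBayes with trend and robust, group as the only term, two-sided, Benjamini-Hochberg over the 12555 genes that reached 1 FPKM in 3 or more of the 6 libraries, called under 0.05). The fit and the depth estimate were tried on simulated data. Few genes were changed in the data simulated for the fit, against 65.9% called here, so that trial does not cover this setting. Python 3.11.15, pandas 2.3.3, numpy 2.4.6 and matplotlib 3.10.9 did the rest. Depth was estimated from low-value steps of 985 genes with 1 GENCODE 29 transcript of 700 to 4000 bases, assuming fragments of 150 bases. Sequences are from RefSeq, GRCh38.p14.

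The members and lists were chosen with earlier results of these data known. Named were all members, up to 4 called genes with the largest change per list (the 2 most abundant where fewer than 2 were called), the 3 nearest profiles to the members with the largest rise and fall, and FOXD3, WDR5 and SET. CCNE1, CDT1, CDKN2A, MTAP, VIM and markers were named besides. A gene that the rule names is not reported here. Alternatives were pseudocounts of 0.1 and 5, no filter, a filter at 5 FPKM, median-of-ratios scaling, quantile normalization, no trend, the replicate block, the highest row per symbol and leaving out each library.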

Additional observations from a re-analysis of the deposited data

How the results depend on the processing

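Refits of single members under the alternatives kept direction and call in 142 cases; the exceptions were RB1 (lost in 4) and E2F7 (gained in 2), whose values stand above, and none reversed. At a filter of 5 FPKM E2F5 and E2F7 were not tested, which left 1 member called lower. Counts that moved by over 1.5 times were those of the dimer partners called higher (1 to 2 when libraries were left out), of the MuvB list called higher (6 with median-of-ratios scaling and 5 with quantile normalization, against 3) and of the corepressors called higher (5 with median-of-ratios scaling, 3 with quantile normalization and 1 to 2 when libraries were left out, against 1). The score difference was 0.95 with a pseudocount of 0.1, 0.45 with one of 5, 1.28 without the atypical E2Fs and 0.29 without E2F4 and E2F5. Median-of-ratios and quantile scaling also moved the share of called genes that were lower, to 46.9% and 47.4% in that order, against 58.7%.

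With the replicate block the members called were again 7 higher and 2 lower, and 8172 genes were called in all, against 8278. Deviations of same-numbered libraries correlated at 0.06, 0.16 and 0.12 across genes, and each library correlated best with its own number, a hint from the data and not from the design. Depth limits the members near 2 FPKM most.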
